A study of Homo sapiens with 21 samples.

Results

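Lapatinib was added to a low dose of the CDK12 and CDK13 inhibitor THZ531 in Hs578T cells, an established triple-negative breast cancer line with mesenchymal features. The comparison set 3 samples given 0.1 µM THZ531 with 3.16 µM lapatinib against 3 samples given 0.1 µM THZ531 alone, which are 6 of the 21 samples of the series. All genes that passed a filter on low counts were members, 16036 of the 28395 genes counted, of which 13745 were protein-coding and 1405 were lncRNAs. The remaining groups, also of 3 samples each, received DMSO, 3.16 µM lapatinib, 1 µM THZ531, 1 µM nilotinib, or 0.1 µM THZ531 with 1 µM nilotinib, and every group was wild type and collected 8 h after treatment. The study measured these transcriptomes to ask whether mechanisms other than the blocking of ABCG2, a drug efflux pump, add to the response to THZ531. Total counts of the 6 samples were 105036702, 106791643 and 105826105 with 0.1 µM THZ531 and 105119748, 103120049 and 103619380 with lapatinib added. The study describes the sequenced samples as coming from independent experiments, but the labels do not tie a replicate number to an experiment. The p-values measure the spread between samples within a group, estimated over all 7 groups at once. Replicate 1 of the combination differed from replicates 2 and 3 by a chi-square per degree of freedom of 134 and 99.1 over genes, against 18.7 between those 2, and without it 2974 genes were lower and 1321 higher in the comparison below.

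CDK12 and CDK13 each pair with cyclin K and phosphorylate the C-terminal tail of RNA polymerase II while a transcript is being elongated. Loss of their activity is known to let transcripts end early within introns and to lower genes of DNA repair, and THZ531 blocks both kinases by binding them covalently. Lapatinib inhibits the kinases of EGFR and HER2, receptors of the ERBB family that signal through ERK and AKT, and it can also block ABCG2.

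The line's own markers were checked first. Vimentin (VIM), the intermediate filament of mesenchymal cells, averaged 6718 CPM (counts relative to the TMM-scaled library total) with 0.1 µM THZ531 and 9807 CPM with lapatinib added. The adhesion and matrix genes FN1 and CDH2 were also abundant, at 942 and 511 CPM with 0.1 µM THZ531, whereas the epithelial adhesion genes CDH1 and EPCAM averaged 0.168 and 0.0354 CPM, ESR1 0.320 CPM and PGR 0.0117 CPM. The receptor gene ERBB2 (HER2) was not near 0, at 37.1 CPM with 0.1 µM THZ531 and 27.7 CPM with lapatinib added. Of the markers of other cells, the T cell gene CD3E had at most 2 counts in any sample, and the endothelial gene PECAM1 averaged 0.388 CPM with 0.1 µM THZ531. The leukocyte gene PTPRC averaged 0.961 CPM there and 1.76 CPM with lapatinib added, and the part of other cells in the results was not tested. The basal keratins KRT5 and KRT14 averaged 0.0910 and 4.61 CPM with 0.1 µM THZ531, while the epithelial keratin KRT18 averaged 95.9 CPM there and 155 CPM with lapatinib added. Of the 11 markers tested, 5 were higher and 2 lower on adding lapatinib at an adjusted p under 0.05 in edgeR, against 35% and 36.1% of all genes. Of these, ESR1, which overlaps SYNE1, was lower by a log2 fold change beyond 1 and none was higher by that much. Among all genes 19.1% were lower and 7.91% higher at that limit. The median log2 FC of the 11 markers was 0.55, which turned to -0.14 when samples were scaled to mitochondrially encoded mRNAs.

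Adding lapatinib lowered 3067 genes (19.1% of those tested) and raised 1268 (7.91%), at an adjusted p under 0.05 in edgeR's quasi-likelihood test and a log2 fold change (FC) beyond 1. Without the fold limit, 5786 genes were lower (36.1%) and 5620 higher (35%). Of the lower genes 991 fell beyond a log2 FC of -2 and 231 beyond -3, and of the higher genes 515 rose beyond 2 and 252 beyond 3. The 3 samples of each group did not overlap in 3032 of the lower and 1206 of the higher genes, against 73.2% of all tested genes. Of the 1268 higher genes 1024 averaged under 1 CPM with 0.1 µM THZ531, as did 455 of the 3067 lower genes and 4290 of all 16036 tested, and 823 of the higher genes still did after lapatinib was added. A gene this low could pass the count filter through the samples in which it was high, the combination included. Among protein-coding genes 20.8% were lower and 4.96% higher, and among lncRNAs 8.11% were lower and 25.2% higher.

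Where lower and higher divide depends on the scaling. Mitochondrially encoded mRNAs, made by a polymerase other than RNA polymerase II, held 1.22% ± 0.0669 (SD, n = 3) of counts with 0.1 µM THZ531 and 1.60% ± 0.139 (SD, n = 3) with lapatinib added. Lower genes made up 70.7% of calls with TMM, 83.4% when libraries were scaled by size alone (4136 lower, 821 higher) and 91.4% when they were scaled to the 13 mitochondrially encoded mRNAs (5891 lower, 557 higher). Of all genes tested, 25.8% were lower and 5.12% higher by library size and 36.7% and 3.47% by mitochondrially encoded mRNAs, and these shares stand behind the counts of each gene list below. The median log2 FC of all genes was 0.03 with TMM and shifted by -0.29 and -0.68 under those scalings. In these bulk samples fewer cells and less RNA per cell cannot be told apart. Neither can less nuclear mRNA and more mitochondrially encoded mRNA. With lapatinib alone the 13 mitochondrially encoded mRNAs had a median log2 FC of 0.15 under TMM, with none called. Changes below are relative to the TMM-scaled bulk of genes. Requiring at least 10 counts in every sample left 627 higher genes.

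The protein-coding genes that fell furthest were taken among genes whose log2 CPM averaged 1 or more over the 6 samples and whose groups did not overlap. ZNF609, a zinc finger protein on chromosome 15 (64459578 to 64686068, GRCh38.p14), measured 24.0, 29.4 and 30.8 CPM with 0.1 µM THZ531 and 0.645, 1.19 and 1.20 CPM with lapatinib added. The highest combination sample lay far below the lowest sample of 0.1 µM THZ531, and the log2 FC was -4.79 (SE 0.29, edgeR adjusted p = 1.07e-11). IRF2, a transcription factor that represses interferon-induced genes (chromosome 4, 184387729 to 184474550), went from 15.7, 14.8 and 13.8 CPM to 0.426, 0.624 and 0.701 CPM (log2 FC -4.66, SE 0.19, edgeR adjusted p = 6.04e-14). Its DMSO samples at 14.9, 13.5 and 14.0 CPM overlapped those of 0.1 µM THZ531, where the log2 FC was 0.06 (edgeR adjusted p = 0.864). WBP1L (chromosome 10, 102743948 to 102816262) had the highest CPM of those named, with 69.6, 67.5 and 67.6 CPM falling to 4.44, 4.25 and 3.22 CPM (log2 FC -4.10, SE 0.14). C21orf91 (-4.52, overlapping C21orf91-OT1) and PRR14L (-4.36) were not called at 0.1 µM either. KAT14 and PAFAH2 had already fallen there and are described with the genes that had begun to change. All of those named were also lower with 1 µM THZ531, where the log2 FC against DMSO lay between -3.88 for KAT14 and -2.56 for IRF2.

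A THZ531 responder was taken as a gene called against DMSO at 1 µM THZ531, a comparison that shares no sample with the one described here. At 1 µM, 3027 genes were lower (18.9%) and 925 higher (5.77%). Of the 3067 genes that lapatinib lowered, 2399 were lower at 1 µM, which is 78.2% of the former and 79.3% of the latter. Of the 1268 it raised, 707 were higher at 1 µM, or 55.8% and 76.4%. Another 518 lower and 223 higher genes passed the same test at 1 µM in the same direction with a log2 FC within 1, 149 and 336 had no call there, and 1 and 2 went the opposite way. Across the 16036 genes the log2 FC on adding lapatinib and that at 1 µM THZ531 had a Pearson r of 0.869 and a Spearman rho of 0.867, a description across genes that are not independent replicates. Set against lapatinib alone, which also shares no sample, the same values were -0.004 and 0.019.

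**Figure D1:**
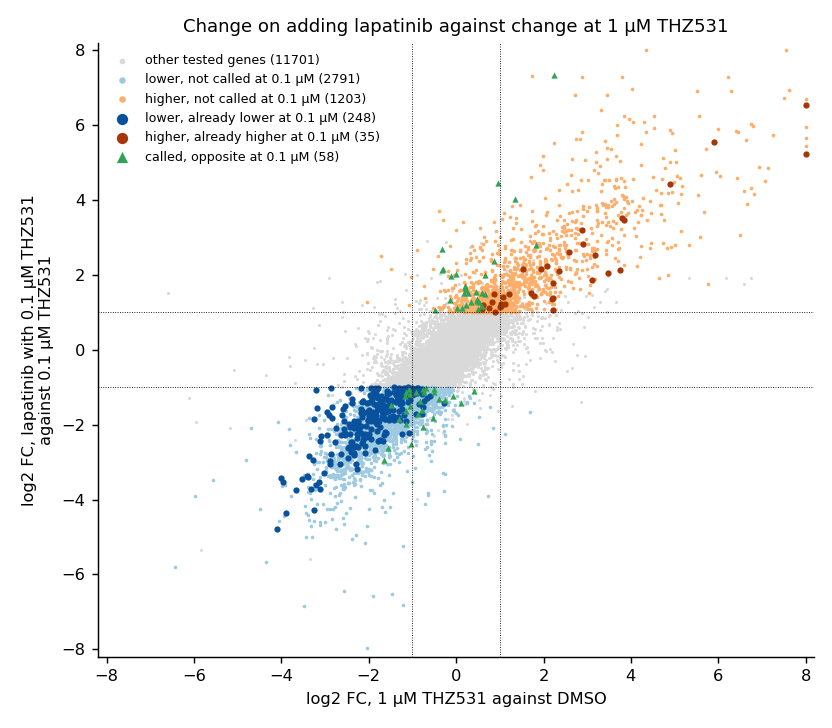
Log2 FC on adding lapatinib to 0.1 µM THZ531 (y axis) against log2 FC of 1 µM THZ531 against DMSO (x axis) for 16036 genes, each point 1 gene, with values beyond 8 drawn at 8 and dotted lines at a log2 FC of 1 and -1. Most of the 3067 lower genes lie in the lower left, and genes already called at 0.1 µM (dark points) are spread among them.

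Genes turned into responders by lapatinib were those called on adding it, called the same way at 1 µM, and with no call in either direction at 0.1 µM. There were 2158 such lower genes (70.4% of the 3067) and 675 such higher genes (53.2% of the 1268). At 0.1 µM without a fold limit, 691 genes were lower (4.31%) and 286 higher (1.78%), and 119 (0.742%) and 23 (0.143%) passed the fold limit. The 2791 lower genes not called at 0.1 µM had a median log2 FC of -0.02 there, with quartiles of -0.17 and 0.09, and a median of -1.68 against DMSO in the combination. The 1203 higher genes not called there had medians of -0.10 at 0.1 µM and 1.59 in the combination.

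Genes that had already begun to change were fewer. At 0.1 µM 4.31% of all genes tested were lower and 1.78% higher. Of the genes that lapatinib lowered 248 (8.09%) were already lower at 0.1 µM, 229 of them also called at 1 µM. Of the genes that it raised 35 (2.76%) were already higher at 0.1 µM, 29 of them called at 1 µM. Both comparisons use the 0.1 µM samples with opposite sign, so a chance deviation of these samples pushes a gene away from this class. The counts rest on few samples: they were 133, 127 and 146 lower and 18, 20 and 23 higher without replicates 1, 2 and 3 of 0.1 µM THZ531, and 156 and 142 lower without DMSO replicates 1 and 2. Without DMSO replicates 1, 2 and 3 the higher count was 20, 19 and 23. They also moved with the scaling, to 376 lower and 23 higher by library size and 141 and 9 by mitochondrially encoded mRNAs. At 0.1 µM the 248 genes had a median log2 FC of -0.53 against DMSO and the 35 one of 0.90, against -2.29 and 2.68 in the combination and -1.85 and 2.19 at 1 µM. The part of the combination's log2 FC already present at 0.1 µM had a median of 23.8% among the lower genes (quartiles 18.4% and 31.5%) and 27.5% among the higher genes (23.1% and 41.4%). It exceeded 50% in 5 lower and 6 higher genes. Of all lower genes 70.4% were turned into responders and 7.47% had begun and were called at 1 µM. Of all higher genes these shares were 53.2% and 2.29%, and they stand behind such counts in each gene list below.

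KRCC1 showed the largest early fall among the named genes already lower. This gene on chromosome 2 (88027205 to 88055783) measured 35.3, 30.5 and 35.0 CPM in DMSO, 16.1, 15.7 and 13.0 CPM with 0.1 µM THZ531 and 1.65, 1.24 and 1.25 CPM with lapatinib added. The 3 groups did not overlap, and the log2 FC was -1.17 at 0.1 µM (SE 0.11, edgeR adjusted p = 1.81e-06) and a further -3.44 on adding lapatinib (SE 0.12, edgeR adjusted p = 1e-14). KAT14, a histone acetyltransferase gene (chromosome 20, 18137153 to 18188035) that overlaps PET117, whose reads cannot be separated from it by unstranded counting, had 9.41, 9.89 and 9.97 CPM with 0.1 µM THZ531 and 0.459, 0.481 and 0.490 CPM with lapatinib added. Its log2 FC was -0.70 at 0.1 µM and -4.35 on adding lapatinib. PAFAH2, a phospholipase that cleaves platelet-activating factor, moved by -0.42 and then by -4.29. KLHL22, an adaptor of a cullin ubiquitin ligase, went from 11.8, 12.3 and 12.6 CPM in DMSO to 6.09, 6.07 and 5.44 and then to 1.31, 1.20 and 1.15 CPM. The surface antigen PSCA, the ubiquitin ligase HECW1, the exchange factor ARHGEF39 and the erythroid membrane protein ERMAP took steps of similar size at 0.1 µM and on adding lapatinib. Their log2 FC at 0.1 µM was -1.09, -1.08, -0.98 and -0.97, and on adding lapatinib -1.43, -1.05, -1.02 and -1.12. HECW1, ARHGEF39 and ERMAP overlap other genes.

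Of the 35 genes that had begun to rise, 17 were protein-coding and 19 averaged under 1 CPM in DMSO, and those described are among the more abundant. ATF3, a stress-induced factor of the bZIP family (chromosome 1, 212565407 to 212620777), measured 3.86, 4.18 and 3.74 CPM in DMSO, 5.79, 5.78 and 5.54 CPM with 0.1 µM THZ531 and 23.5, 28.1 and 25 CPM with lapatinib added. The groups stepped up without overlap, by a log2 FC of 0.54 (SE 0.15, edgeR adjusted p = 0.0373) and then 2.16 (SE 0.15, edgeR adjusted p = 9.94e-11). CCN2, a secreted matrix protein known as connective tissue growth factor, was at 145, 158 and 146 CPM in DMSO, 197, 199 and 194 CPM with 0.1 µM THZ531 and 802, 930 and 880 CPM with lapatinib added. These steps were 0.40 and 2.14. JUNB, a subunit of the AP-1 factor whose gene overlaps HOOK2, had 43.0, 42.8 and 45.6 CPM with 0.1 µM THZ531 and 263, 271 and 267 CPM in the combination, with no overlap (log2 FC 2.61, SE 0.07), after a log2 FC of 0.31 at 0.1 µM. The transcription factors KLF4 and MSX1 had log2 FCs of 0.43 each at 0.1 µM and 1.23 and 1.21 on adding lapatinib, and the orphan receptor GPR37 had 0.48 and 1.19.

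Change at 0.1 µM did not always go on in the same direction. Of the 691 genes lower at 0.1 µM, 388 fell further on adding lapatinib without a fold limit, 120 rose and 183 had no call. Of the 286 higher, 121 rose further, 102 fell and 63 had no call, where 36.1% of all genes fell and 35% rose. The 0.1 µM samples enter both comparisons with opposite sign, which favours a change of direction. With the fold limit 30 genes lower at 0.1 µM rose and 28 higher at 0.1 µM fell. CDK12, the target kinase itself (chromosome 17, 39461486 to 39567559), was among the latter, with 48.8, 57.5 and 49.3 CPM in DMSO, 66.3, 74.7 and 78.9 CPM with 0.1 µM THZ531 and 10.7, 14.5 and 13.3 CPM with lapatinib added. All 0.1 µM samples stood above all DMSO samples and all combination samples below them, with a log2 FC of 0.50 (SE 0.14, edgeR adjusted p = 0.0393) and then -2.51 (SE 0.15, edgeR adjusted p = 1.03e-11). ZNF586, a zinc finger gene, moved by 0.56 and then -2.95, and TRIM13, a ubiquitin ligase gene that overlaps DLEU2 and KCNRG, by 0.72 and then -2.64. The largest reversals in the other direction, CATSPERZ, CTAGE7P and a gene without a name, averaged under 1 CPM throughout.

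**Figure D2:**
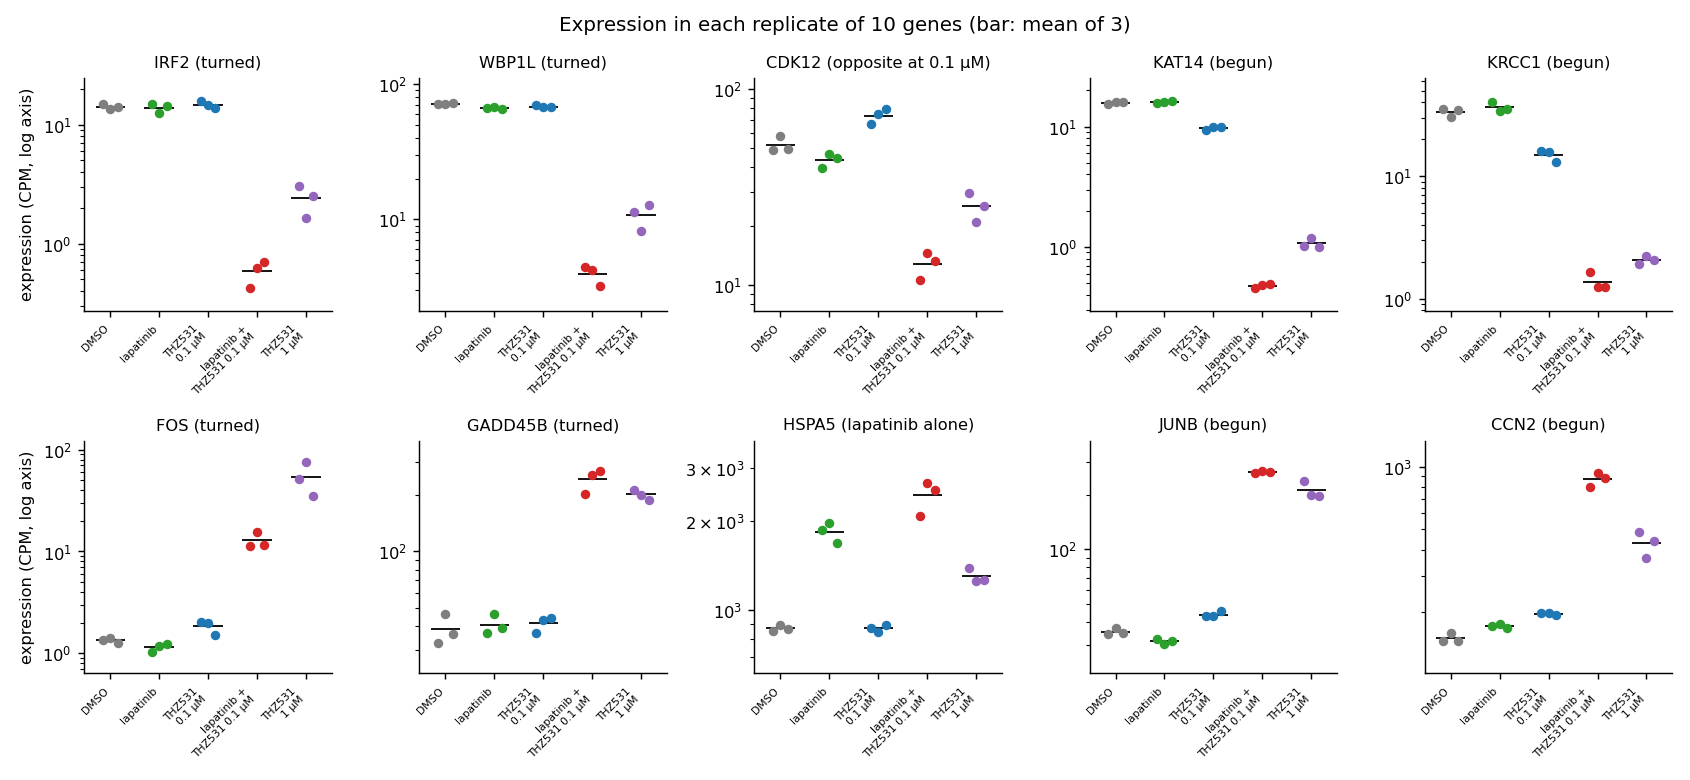
CPM of 10 genes in each replicate (points, log axis) with the mean of 3 as a bar, for DMSO, lapatinib, 0.1 µM THZ531, the combination and 1 µM THZ531. IRF2 and WBP1L sit level in the first 3 groups and fall in the combination, KAT14 and KRCC1 step down at 0.1 µM first, CDK12 steps up before it falls, and HSPA5 is raised by lapatinib alone.

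Rises were taken under the same limits on biotype, level and overlap of samples as the furthest falls, which leaves out most of the 252 genes that rose beyond a log2 FC of 3. FOS, the other classic AP-1 subunit (chromosome 14, 75278828 to 75282230), had 2.02, 1.97 and 1.51 CPM with 0.1 µM THZ531 and 11.4, 15.7 and 11.5 CPM with lapatinib added (log2 FC 2.81, SE 0.21, edgeR adjusted p = 3.85e-10). The groups did not overlap, but with 1 µM THZ531 it stood at 52.1, 75.4 and 35.5 CPM, above all combination samples (log2 FC of the combination against 1 µM -2.08, edgeR adjusted p = 3.11e-07). GADD45B, a stress and growth arrest gene (chromosome 19, 2476127 to 2478257), went from 36.9, 42.9 and 44.3 CPM to 203, 256 and 267 CPM, all above the highest sample of 0.1 µM. SIK1, a salt-inducible kinase (chromosome 21, 43414483 to 43427131), went from 2.09, 1.97 and 2.09 CPM to 12.5, 9.78 and 12.5 CPM, and RASD1, a small G protein, from 1.26, 1.16 and 1.14 CPM to 8.43, 11.9 and 11.7 CPM. Neither was called at 0.1 µM. SNX32, a sorting nexin, rose by a log2 FC of 4.03. EID3, which lies within TXNRD1, rose by 5.79, from 0.293, 0.393 and 0.274 CPM to 15.5, 19.1 and 18.7 CPM, and reads from its host cannot be told apart from its own. CSKMT, which overlaps LBHD1 and SNORA57, rose by 2.80 after a log2 FC of -0.36 at 0.1 µM (edgeR adjusted p = 0.0206).

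FOS and SIK1, which lapatinib raised without a call for lapatinib alone, and HSPA5, which lapatinib alone raised too, are shown with the 250 bases before their start (RefSeq, GRCh38.p14), because their promoters share a short motif; they were picked after their values were seen. Capitals mark TGACGT, the core of the cAMP response element, or ACGTCA where it lies on the other strand, and in HSPA5 also CCAAT and CCACG with any 9 bases between them, the endoplasmic reticulum stress element, searched on both strands. TGACGT on either strand was in 7.10% of all 35116 promoter windows of this length and in 9.98% of the 11210 of tested coding genes, and the longer motif in 0.0740% and 0.134%. The motifs do not overlap here, and a match is only a description. FOS is at chr14:75278578-75278827 on the plus strand, SIK1 at chr21:43427132-43427381 on the minus strand and HSPA5 at chr9:125241344-125241593 on the minus strand.
FOS: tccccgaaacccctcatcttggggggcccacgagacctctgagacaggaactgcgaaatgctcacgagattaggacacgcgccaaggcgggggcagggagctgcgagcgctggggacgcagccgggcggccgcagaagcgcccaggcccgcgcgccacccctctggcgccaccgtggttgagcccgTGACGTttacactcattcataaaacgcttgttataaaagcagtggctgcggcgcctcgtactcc
SIK1: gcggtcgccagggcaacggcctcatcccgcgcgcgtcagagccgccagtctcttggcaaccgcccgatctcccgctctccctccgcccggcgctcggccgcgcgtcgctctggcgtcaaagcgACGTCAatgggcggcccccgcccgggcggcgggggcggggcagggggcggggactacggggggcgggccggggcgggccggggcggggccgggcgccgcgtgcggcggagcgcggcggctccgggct
HSPA5: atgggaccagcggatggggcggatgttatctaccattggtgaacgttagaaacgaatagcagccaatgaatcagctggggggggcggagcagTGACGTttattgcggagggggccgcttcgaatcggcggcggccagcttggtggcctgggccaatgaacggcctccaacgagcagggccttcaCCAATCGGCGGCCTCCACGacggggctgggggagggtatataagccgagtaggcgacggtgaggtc

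Of 25 immediate-early genes, 14 were higher on adding lapatinib and 2 lower, against 7.91% and 19.1% of all genes tested, with a median log2 FC of 1.04 against 0.03. Of the risers, 7 were turned into responders, 4 had begun at 0.1 µM (ATF3, CCN2, JUNB and KLF4) and 3 did not pass the fold limit at 1 µM. Among all higher genes 53.2% were turned, a share near that of this list, and 2.76% were already higher. Their summed level was 1623, 1670 and 1650 CPM with 0.1 µM THZ531 and 3255, 3893 and 3603 CPM in the combination, without overlap, and CCN1, a secreted matrix protein, had the highest CPM, at 377, 398 and 368 CPM and then 1032, 1224 and 1110 CPM. The lower pair was FOSL1, at a log2 FC of -1.61, and the orphan receptor NR4A1, at -1.39. By library size 11 were higher, 3 of them already at 0.1 µM, and with mitochondrial scaling 7 and none. The list's median stayed above 0 under every scaling, at 0.35 with mitochondrially encoded mRNAs. Of 16 ERK feedback genes and ETS targets, none was higher and 5 were lower with TMM (median -0.41), while 8 were lower with mitochondrial scaling (median -1.10). The 5 were the ETS factors ETV5 (-1.66) and ETV1 (-1.57), and the inhibitors of the pathway SPRED3 (-1.63), SPRY4 (-1.07) and SPRED1 (-1.07). SPRED3 had begun, with a log2 FC of -0.60 at 0.1 µM.

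The ERBB family held the target of lapatinib. EGFR, whose locus overlaps EGFR-AS1 (chromosome 7, 55019017 to 55211628), measured 166, 176 and 189 CPM with 0.1 µM THZ531 and 44.4, 50.3 and 50.7 CPM with lapatinib added, with no overlap (log2 FC -1.86, SE 0.10, edgeR adjusted p = 1.85e-12). It was not called at 0.1 µM (-0.11) or with lapatinib alone (-0.14), and was lower at 1 µM THZ531 (-1.30). Of the 15 receptors, ligands and feedback inhibitors tested, 5 were lower and 1 higher, against 19.1% and 7.91% of all genes, with a median of -0.04, or -0.33 with library size and -0.72 with mitochondrial scaling. Besides EGFR the lower ones were the ligand NRG2 (under 1 CPM), the receptor inhibitor LRIG2 (-1.76) and the ubiquitin ligases CBL (-1.47) and CBLB (-1.26). The riser was the ligand HBEGF, from 12.8, 13.6 and 13.1 CPM to 46.1, 55.5 and 50.3 CPM (log2 FC 1.94, SE 0.10).

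Of 35 genes of homologous recombination and the Fanconi anemia pathway, 18 were lower and none higher, against 19.1% and 7.91% of all genes, with a median log2 FC of -1.04. With TMM none of the 18 was already lower at 0.1 µM, while 4 lower genes were by library size and 1 with mitochondrial scaling. Of the 18, 13 were turned into responders, near the 70.4% of all lower genes, and 5 missed the limit at 1 µM. SLX4, a scaffold of repair nucleases (chromosome 16, 3581181 to 3611606), went from 8.34, 10.8 and 11.9 CPM to 0.656, 1.12 and 1.36 CPM (log2 FC -3.31, SE 0.24, edgeR adjusted p = 2.05e-10). At 0.1 µM its log2 FC was -0.65, short of the threshold (edgeR adjusted p = 0.0619). XRCC2, a recombination protein, and the helicase BLM fell by log2 FCs of -2.81 and -2.74. BRCA1, named here after its values were seen and overlapping NBR2, was at 20.4, 23.3 and 20.7 CPM in DMSO, 11.6, 11.4 and 13.0 CPM with 0.1 µM THZ531 and 6.96, 6.79 and 7.64 CPM in the combination. Its steps of -0.84 and -0.75 were both past the edgeR threshold (adjusted p = 0.000244 and 1.38e-05) but within the fold limit. NBN, of the complex that senses double-strand breaks, had the highest CPM of the list and a log2 FC of -0.64. Together the list summed to 1136, 1111 and 1080 CPM with 0.1 µM THZ531 and 826, 800 and 784 CPM in the combination.

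Of 21 DNA damage checkpoint genes, 7 were lower and none higher (median -0.87), against 19.1% and 7.91% of all genes, and 12 were lower by library size and 19 with mitochondrial scaling. With TMM the kinase ATR and its partner ATRIP had already begun, a count of 2 that was 1 with DESeq2 size factors and 0 with mitochondrial scaling. ATRIP, which overlaps TREX1 (chromosome 3, 48446737 to 48467645), was at 18.2, 18.2 and 19.6 CPM in DMSO, 15.1, 14.9 and 15.1 CPM with 0.1 µM THZ531 and 1.52, 1.54 and 1.5 CPM with lapatinib added. Its log2 FC was -0.32 (edgeR adjusted p = 0.0389) and then -3.30 (edgeR adjusted p = 1.76e-15), while ATR moved by -0.25 and -1.06. ETAA1, another activator of ATR, and the phosphatases CDC25C, which overlaps FAM53C, and CDC25B fell by -3.04, -2.21 and -1.65 without a call at 0.1 µM. Of 36 G1/S genes 10 were lower and 1 higher (median -0.34), or 15 and 19 lower and none higher by library size and with mitochondrial scaling. With TMM 9 of the 10 were turned into responders, led by the E2F factors E2F5 (-3.59, overlapping RBIS), E2F8 (-2.94) and E2F7 (-2.78). E2F7 went from 84.6, 86.5 and 89.0 CPM to 11.9, 13.9 and 12.2 CPM. The riser was CDKN2D, an inhibitor of CDK4 and CDK6, by 1.19, and MCM7, a subunit of the replicative helicase, overlaps AP4M1 and had the highest CPM, with a log2 FC of 0.43, or -0.25 under mitochondrial scaling.

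Among 22 transcriptional CDKs, cyclins and regulators of P-TEFb, the elongation kinase of CDK9, 4 were lower and 1 higher (median -0.23), or 18.2% and 4.55%, near the 19.1% and 7.91% of all genes, and with mitochondrial scaling 11 were lower and none higher. Their sum was 917, 946 and 962 CPM with 0.1 µM THZ531 and 802, 1040 and 1038 CPM in the combination, which overlap. The 4 were CDK12, MEPCE, CDK7 and CCNL1. MEPCE, which caps the 7SK RNA that holds P-TEFb inactive, went from 148, 149 and 146 CPM to 28.2, 37.3 and 36.4 CPM (log2 FC -2.12, SE 0.13). CDK7, counted at 1.02 CPM or less in these 6 samples and overlapping CCDC125, had -1.34, a call lost in edgeR (adjusted p = 0.0843, 0.114, 0.0583 and 0.0907) without replicate 2 or 3 of the combination (-1.23 and -1.08) or of 0.1 µM THZ531 (-1.31 and -1.15). The cyclin CCNL1 had -1.28. CDK13, the second target, had a log2 FC of -0.62. Of 23 cleavage and polyadenylation genes, 7 were lower, all turned into responders, and 1 was higher (median -0.46), and with mitochondrial scaling 13 were lower and none higher. Their sum was 1633, 1608 and 1579 CPM with 0.1 µM THZ531 and 1628, 1661 and 1658 CPM in the combination, which overlap. CSTF2T, which lies within PRKG1, the 3' processing factor CPSF7 and the poly(A) polymerase PAPOLG fell by -2.60, -2.44 and -2.40. SCAF8, which restrains early polyadenylation, rose by 1.21, from 37.1, 41.0 and 41.1 CPM to 71.3, 107 and 96.8 CPM. PAPOLA had the highest CPM and a log2 FC of 0.48, or -0.21 under mitochondrial scaling.

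Among the 21 lists, zinc finger genes named ZNF had the largest number of falls. Of the 440 tested, 285 were lower and 7 higher, with a median log2 FC of -1.47, against 19.1% and 7.91% of all genes. Of the 285, 242 were turned into responders and 22 had begun and were also called at 1 µM, against 70.4% and 7.47% of all lower genes. The lower ZNF genes already lower at 0.1 µM numbered 22 with TMM, 27 by library size and 9 with mitochondrial scaling. The summed level of the list went from 5105, 5140 and 5197 CPM to 2995, 3469 and 3293 CPM, without overlap. ZNF440 and ZNF564, both on chromosome 19, followed ZNF609 with log2 FCs of -4.61 and -4.59, and ZNF207 had the highest CPM and a log2 FC of 0.05, or -0.63 with mitochondrial and -0.24 with library size scaling. On chromosome 19 as a whole 28.1% of 1025 tested coding genes were lower and on the X chromosome 12.8% of 515. The ZNF genes share a conserved domain, and reads of close paralogs may not be told apart.

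Most genes of the cytosolic ribosome, nuclear oxidative phosphorylation and the proteasome were higher under TMM without the fold limit, against 35% of all genes. Few passed the limit in either direction, against 19.1% lower and 7.91% higher among all genes. Of 76 cytosolic ribosomal protein genes 75 were higher without the fold limit and only RPL36A with it, at a median of 0.70, which fell to 0.02 with mitochondrial scaling. RPL8, with the highest CPM, went from 2445, 2326 and 2367 CPM to 4283, 3445 and 3578 CPM, or a log2 FC of 0.66 that became -0.01. The 75 nuclear oxidative phosphorylation subunits had 1 lower (NDUFV3), 1 higher (COX6C) and a median of 0.67, which turned to -0.01 with mitochondrial scaling, and the 34 proteasome subunits had PSMD5 lower and a median of 0.47, which turned to -0.21. None of the 13 mitochondrially encoded mRNAs passed the fold limit, though all were higher without it (median 0.71, or 0.01 when scaled to themselves), and of 76 mitochondrial ribosomal protein genes 5 were lower, led by MRPS31 (-1.81), at a median of -0.08, and without the fold limit 28 were lower and 24 higher, near the 36.1% and 35% of all genes. By library size 11 of the 76 were lower, at a median of -0.37, and with mitochondrial scaling 24, at -0.76. Replication-dependent histones, whose main transcripts lack a poly(A) tail while these libraries were poly(A)-selected, had 21 of 39 higher and none lower. Among all genes 7.91% were higher and 19.1% lower. By library size 13 histones were higher and with mitochondrial scaling 10. Their median was 1.16, or 0.46 with mitochondrial scaling, and their sum went from 29.7, 29.2 and 27.5 CPM to 62.3, 54.3 and 56.2 CPM. H2AC17, H4C3 and H3C3 rose most, by 2.83, 2.80 and 2.66, from under 1 CPM, and close copies of these genes may share reads.

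**Figure D3:**
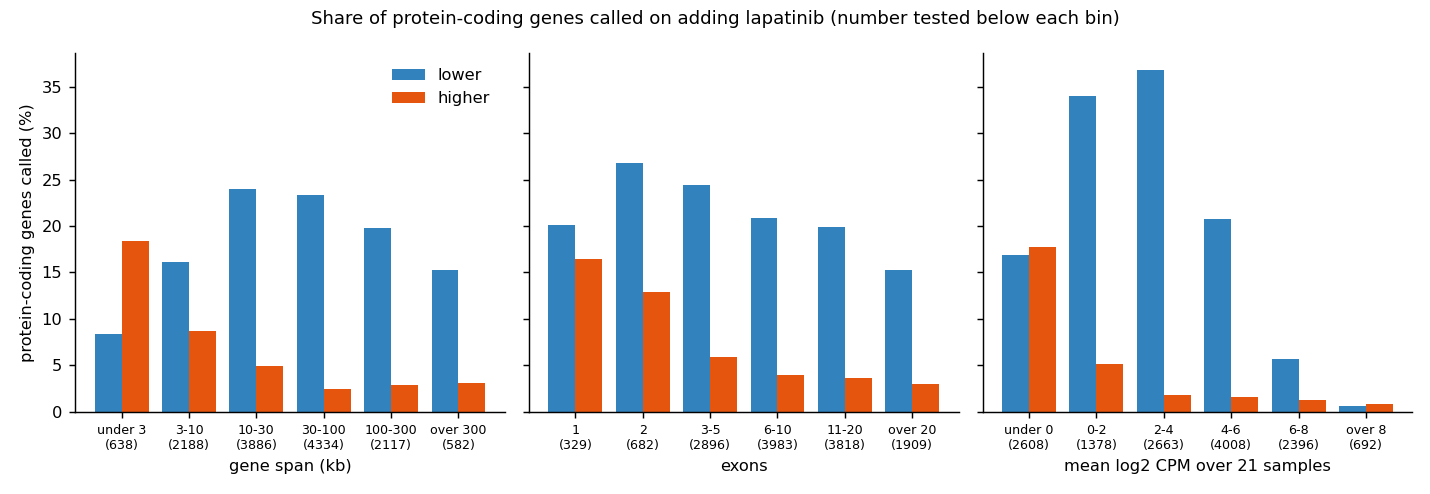
Percent of protein-coding genes called lower and higher on adding lapatinib (y axis) by gene span in kb, exons of the canonical transcript and mean log2 CPM over 21 samples, with the number tested under each bin. Falls peak at 24.0% for spans of 10 to 30 kb and 36.8% for a mean log2 CPM of 2 to 4, and rises at 18.3% for spans under 3 kb.

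The calls were also set against gene span, exon number and level, the last of which the count filter used and the combination samples enter. Among coding genes spanning under 3 kb, 8.31% were lower and 18.3% higher, against 24.0% and 4.86% at 10 to 30 kb and 15.3% and 3.09% beyond 300 kb. Genes with a single exon were higher in 16.4% and lower in 20.1% of cases, and genes with over 20 exons in 2.99% and 15.3%. By level, falls took 36.8% of genes at a mean log2 CPM of 2 to 4 but 5.68% at 6 to 8 and 0.578% above 8, and rises took 17.7% below 0. Coding genes already lower at 0.1 µM had a median span of 29.9 kb and 8 exons, and lower genes not called there 33.7 kb and 8 exons, against 31.2 kb and 9 exons for all tested coding genes. Of the lower genes 35.7% and of the higher genes 43.6% overlapped another gene, against 38.6% of all tested.

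Lapatinib alone changed few genes. Without a fold limit 9 were lower (0.0561%) and 41 higher (0.256%), with 533 and 615 at an unadjusted p under 0.05 in edgeR, and the counts were unstable: leaving out any single DMSO or lapatinib sample gave 1 to 5 lower and 6 to 10 higher, a fit of only the groups compared 16 and 90, and DESeq2 31 and 99. On top of 0.1 µM THZ531, 7 of the 9 were lower, 1 was higher and 1 had no call, while of the 41 it was 15 lower, 16 higher and 10 without a call, shares near the 36.1% and 35% of all genes. HSPA5, the chaperone BiP of the endoplasmic reticulum (chromosome 9, 125234853 to 125241343), measured 855, 892 and 866 CPM in DMSO, 1856, 1966 and 1680 CPM with lapatinib, 871, 847 and 890 CPM with 0.1 µM THZ531 and 2078, 2684 and 2542 CPM with both. Both groups with lapatinib stood above all samples of DMSO and of 0.1 µM THZ531. DDIT4, an inhibitor of mTOR signalling, went from 6.21, 5.69 and 7.51 CPM to 36.0, 32.9 and 39.4 CPM, a log2 FC of 2.48 against 1.45 for lapatinib alone. The amino acid genes PSAT1 and SLC7A5 had 0.58 and 0.27 on top of THZ531, the latter not past the threshold (edgeR adjusted p = 0.231), and 1.09 each with lapatinib alone. With mitochondrial scaling their log2 FCs on top of THZ531 were -0.10 and -0.42, with library size scaling 0.29 and -0.03, and PSAT1 lost its call without replicate 1 of the combination (0.49, edgeR adjusted p = 0.0533). SLC7A5 gained a call in a fit of only the groups compared (0.26, edgeR adjusted p = 0.0152) and, as a fall, with mitochondrial scaling (edgeR adjusted p = 0.0259). Of the genes lower with lapatinib alone, RAB7B and CYP1B1 also fell on top of THZ531 (-1.70 and -0.82), EDN1 had -0.21, a call lost with DESeq2 or its size factors (-0.18 each), without the count filter (-0.22), without replicate 2 or 3 of the combination (-0.20 and -0.21) or replicate 1 or 2 of 0.1 µM THZ531 (-0.21 and -0.17), and MYLIP rose by 0.62, or -0.07 with mitochondrial scaling.

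Of 31 genes of the ATF4 response, 9 were higher with lapatinib alone without a fold limit, against 0.256% of all genes. Counts of that comparison were unstable, as described above. On top of THZ531 16 were higher and 7 lower without the limit, against 35% and 36.1% of all genes, and 4 and 1 with it, against 7.91% and 19.1% (median 0.39, or -0.30 with mitochondrial scaling). The risers DDIT4, ATF4 (1.34), NUPR1 (1.27) and CHAC1 (1.19) included none called higher with the fold limit at 1 µM THZ531. By library size 2 were higher and 4 lower and with mitochondrial scaling 1 and 6, where CHAC1 lost its call (0.50). ATF4 itself, the factor that drives amino acid synthesis genes under stress, stood at 67.4, 74.5 and 76.7 CPM with 0.1 µM THZ531, 173, 189 and 192 CPM with lapatinib added and 79.3, 71.4 and 73.8 CPM at 1 µM. The combination lay above all samples of both THZ531 doses. It overlapped lapatinib alone, at 175, 173 and 146 CPM (log2 FC 1.02 against DMSO, edgeR adjusted p = 0.0283). STC2 was the lower member (-1.22), and GARS1, with the highest CPM, had a log2 FC of 0.66, or -0.02 under mitochondrial scaling. Of 27 sterol and fatty acid genes 6 were higher with lapatinib alone without a fold limit, against 0.256% of all genes, or 2 with mitochondrial scaling. On top of THZ531 13 were higher and 9 lower without the limit, the latter near the 36.1% of all genes, and none and 2 with it, among them the mevalonate kinase MVK (-2.52, overlapping MMAB), at a median of 0.37 that turned to -0.32 with mitochondrial scaling, where 6 were lower.

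Whether lapatinib moved a gene more with THZ531 than without was tested as an interaction, the log2 FC on adding it to 0.1 µM THZ531 minus that on adding it to DMSO. It was lower for 2942 genes (18.3%) and higher for 1075 (6.7%) at the same limits. IRF2 had an interaction of -4.64 (SE 0.24), KAT14 -4.37 (SE 0.14) and JUNB 2.78 (SE 0.09). For HSPA5 it was 0.41 (edgeR adjusted p = 0.184), for ATF4 0.33 (edgeR adjusted p = 0.321) and for PSAT1 -0.51 (edgeR adjusted p = 0.119), none past the threshold. DDIT4 had 1.03 (edgeR adjusted p = 0.0325) and SLC7A5 -0.82 (edgeR adjusted p = 0.0152), both past the threshold, the latter within the fold limit. The spread behind these tests was estimated over all 7 groups, including nilotinib, which is outside this contrast. Nilotinib samples had 2166, 999 and 1052 CPM of HSPA5 and 293, 134 and 137 CPM of PSAT1. The part of this spread in the missing calls was not tested. A missing call does not show that lapatinib moved a gene equally with and without THZ531.

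The apoptosis regulators and the study's own genes were followed as 2 more lists. Of 15 BCL2 family genes tested, 4 were lower and 2 higher (median -0.44), against 19.1% and 7.91% of all genes, while by library size 6 were lower and 1 higher and with mitochondrial scaling 8 and none. The lower ones were BMF (-2.10), BCL2 (-1.57), BAK1 (-1.47) and BOK (-1.01, overlapping BOK-AS1), and the higher ones the death-promoting BBC3 (1.52) and PMAIP1 (1.03). MCL1, the survival protein with the highest CPM of the family, went from 291, 277 and 261 CPM to 167, 204 and 186 CPM, without overlap but within the fold limit (log2 FC -0.57, SE 0.12, edgeR adjusted p = 0.000224). Of 11 genes the study names, some of them picked there on these samples, 5 were lower and none higher. Their median was -0.81, and 8 were lower with mitochondrial scaling, which is not independent evidence of a direction. The study names SMARCA4, BRAF, SOS1, JAK2, E2F3, ERCC6 and EGFR for transcripts that end early within introns. It measured MCL1 as protein at a later time. Counts over a whole gene are a different measure, so a small log2 FC here does not bear on those results. ERCC6, a helicase of transcription-coupled repair that overlaps PGBD3, went from 10.7, 10.3 and 11.6 CPM to 0.699, 0.864 and 0.924 CPM (log2 FC -3.71, SE 0.15). E2F3 (-2.13), EGFR, CDK12 and JAK2 (-1.08, overlapping INSL6) were the others, and SOS1 and BRAF had -0.81 and -0.19, the latter past the threshold but not with DESeq2 size factors (-0.16), without replicate 1 of the combination (-0.18) or replicate 2 of 0.1 µM THZ531 (-0.17). The chromatin remodeler SMARCA4 had -0.07 (edgeR adjusted p = 0.691), a value that became -0.77 and passed the threshold with mitochondrial scaling. ABCG2, the pump, had 29.4, 25.1 and 23.6 CPM with 0.1 µM THZ531 and 31.4, 24.5 and 24.9 CPM with lapatinib added, groups that overlap (log2 FC 0.05, SE 0.12, edgeR adjusted p = 0.727). Its log2 FC turned to -0.25 with library size scaling and to -0.63 with mitochondrial scaling, the latter past the threshold. Of 34 ABC transporters 3 were lower and 2 higher, against 19.1% and 7.91% of all genes, at a median of 0.17 that turned to -0.12 with library size and -0.51 with mitochondrial scaling. By library size 5 of them were lower and 1 higher, and with mitochondrial scaling 6 and 1.

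The level reached in the combination was compared directly with 1 µM THZ531, which left 292 genes lower (1.82%) and 211 higher (1.32%) when lapatinib was present. Without the fold limit 2589 genes were lower and 2049 higher. The genes named for the furthest falls, chosen for that fall in the same combination samples, all had lower values there than at 1 µM: IRF2 had 3.04, 1.63 and 2.52 CPM at 1 µM against 0.426, 0.624 and 0.701 CPM, a log2 FC of -2.04 (SE 0.20), and ZNF609 had -2.20. By fold the largest differences were in genes near 0. LURAP1, which overlaps POMGNT1, had 44, 29 and 27 counts with 0.1 µM THZ531, 0 in all 3 combination samples and 3, 3 and 11 at 1 µM, which makes it at least 26.7-fold lower in the combination than with 0.1 µM THZ531 on the TMM scale, with 3 counts over the group as the floor. NR2E3 had 8, 25 and 12 counts with 0.1 µM THZ531, 0 in all combination samples and 6, 6 and 6 at 1 µM. On the same scale PTER was at least 9.89-fold lower than with 0.1 µM THZ531, and had 4, 8 and 5 counts at 1 µM. FOXD4L1, at 2 counts in each 0.1 µM sample, was at least 1.60-fold lower. Its counts at 1 µM were 6, 6 and 0, which overlap the combination. FOXD4L1 had no call on adding lapatinib with TMM and gained one with mitochondrial scaling (edgeR adjusted p = 0.0391). In all 12 lower genes had 0 counts in the combination and 24 higher genes 0 counts with 0.1 µM THZ531. Of the genes above their level at 1 µM, S1PR1, a lipid receptor, had 0.295, 0.317 and 0.212 CPM in the combination and 0.0105, 0 and 0.0428 CPM at 1 µM, RIMBP3C and GPR65 averaged under 1 CPM, and SYNRG spread from 0.306 to 1.97 CPM within the combination.

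Set against nilotinib, another tyrosine kinase inhibitor, on the same dose of THZ531, 2 genes were lower (0.0125%) and 8 higher (0.0499%) with lapatinib. These counts hold the fold limit, and without it 118 genes were lower and 117 higher. DDIT4 was at 36.0, 32.9 and 39.4 CPM with lapatinib and 11.4, 12.1 and 14.3 CPM with nilotinib (log2 FC 1.52, SE 0.29, edgeR adjusted p = 0.0102). GPRC5A, a retinoid-induced receptor, had 2.79, 3.65 and 3.31 CPM against 1.54, 1.73 and 1.21 CPM (log2 FC 1.12, SE 0.15, edgeR adjusted p = 0.000771), and its samples did not overlap. The mitochondrial kinase PDK4 (1.67), the prostaglandin synthase PTGS2 (1.41) and the genes ACTRT3 (1.43), FRAS1 (1.63), LOC101928093 (2.12) and ZNF497-AS1 (1.38) were the other higher genes and CASS4 (-1.10) and GRM8, at 0 counts with lapatinib, the lower ones. The total of 10 was 18 without replicate 1 and 4 without replicate 2 of the lapatinib combination, 5 without replicate 1 of the nilotinib combination, 1 in a fit of only the groups compared and 16 with DESeq2.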

How the data were processed

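RNA was sequenced from polyA-selected, unstranded paired-end libraries, and the values the authors deposited are unnormalized counts of reads by gene in each of 21 samples, with 0 columns left unused. HISAT2 2.1.0 and GRCh38 are named in the submitters' processing notes, and the version and settings of the counting step are not given in the sources used here. Among counts of 1 to 20, 61.6% to 66.4% were even, so mates of a pair may have been counted singly. The members and gene lists were chosen with earlier results of these data known. Counts were filtered with filterByExpr, scaled by TMM and fitted over all 7 groups with edgeR 4.0.16 in R 4.3.3 (glmQLFit and glmQLFTest, Benjamini-Hochberg adjustment), without a replicate term. DESeq2 1.42.0 was an alternative, and others were scalings, filters, halved counts, a replicate block, a fit of only the groups compared and leaving out each sample. Named genes were the largest changes of each comparison, the study's genes, and in each of 21 lists the largest changes and the member with the highest CPM, some of which are not reported here. BRCA1, ATR, BOK, CBL, CBLB, CCNL1, CHAC1, SPRED1 and SPRY4 fall outside that rule and were chosen after their values were seen. Names and positions came from RefSeq (GRCh38.p14) for 15857 of the 16036 tested genes. The tests were also run on simulated counts in which few genes changed, equally often up and down. The dependence on scaling was not checked in this way.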

Additional observations from a re-analysis of the deposited data

Results flagged for a closer look

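The effect of lapatinib differed between cells with and without 0.1 µM THZ531. By the test of that difference itself, the interaction of the 2 treatments in edgeR, lapatinib lowered 2942 genes more, or raised them less, with THZ531 than with DMSO, and 1075 genes went the other way, at an adjusted p under 0.05 and a log2 difference beyond 1. The groups held 3 samples each, and leaving out any single sample of the 4 groups gave 2889 to 3032 lower and 967 to 1121 higher genes.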

How the results depend on the processing

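Of 1895 values of 128 named genes under other settings, 1847 kept their direction and side of the threshold, 22 lost the call, 5 gained one and 21 changed sign; the cause was not tested. Scaling to the 13 mitochondrially encoded mRNAs gave 5891 lower and 557 higher genes on adding lapatinib, 141 already lower and 9 already higher, 5069 lower and 449 higher by interaction, 23 higher with lapatinib alone, 4642 lower and 374 higher also called at 1 µM, and 6 against nilotinib. It turned the log2 FC of MYLIP (-0.0665), PSAT1 (-0.10), SLC7A5 (-0.42), ABCG2 (-0.63), MCM7 (-0.25), PAPOLA (-0.21), GARS1 (-0.0249), ZNF207 (-0.63), RPL8 (-0.0148), VIM (-0.14), FRAS1 (-0.32) and GPR65 (-0.18). Library size alone gave 821 higher, 376 already lower, 23 already higher and 653 higher by interaction, and turned SLC7A5 (-0.0257), ABCG2 (-0.25) and ZNF207 (-0.24). At least 10 counts in every sample, which leaves fewer genes to test, gave 627 higher, 696 higher by interaction and 266 higher also at 1 µM. For lapatinib alone, DESeq2 gave 31 lower and 99 higher and a fit without the remaining groups 16 and 90; against nilotinib they gave 16 and 1. With the replicate number as a replicate block, lapatinib alone lowered 17 genes and the other counts stayed within 1.5 times; the numbers were not taken as pairs, since 2 of the 3 pairs of the main comparison and 36 of 63 over all groups correlated above 0.1 and 8 of 21 samples correlated best with their own number, a hint from the data and not the design, and the labels do not say whether a number marks a shared experiment. Leaving out 1 sample gave 2974 to 3153 lower and 1168 to 1321 higher genes, 127 to 266 already lower, 18 to 39 already higher, 2889 to 3032 lower and 967 to 1121 higher by interaction, 1 to 5 lower and 6 to 10 higher with lapatinib alone, 2303 to 2452 lower and 636 to 718 higher also at 1 µM, 355 to 649 against 1 µM and 4 to 18 against nilotinib. Across these fits the log2 FC of ABCG2 ran from -0.0787 to 0.14, of SMARCA4 from -0.20 to 0.0466, of GPR65 from -0.16 to 0.83 and of SYNRG from -1.54 to 1.01. DESeq2 size factors, no filter and halved counts moved none of these counts by over 1.5 times. Genes with few counts limit the precision: 823 of the 1268 higher genes averaged under 1 CPM in the combination.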

Other observations

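Short non-coding RNAs that were called on adding lapatinib were mostly higher, while many had no call. Of 24 tested snRNA genes 19 were higher and none lower, of 139 snoRNA genes 41 were higher and 1 lower, and of 49 miRNA genes 26 were higher and 1 lower, against 7.91% higher and 19.1% lower among all genes tested. These libraries were polyA-selected and counted without strand, and many such genes lie inside longer genes, so that their reads and those of the host cannot be told apart.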
